A study of Oryza sativa with 6 samples.

Results

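Cytokinin oxidases (CKX) and type-A response regulators (RR) were followed in rice roots exposed to ferulic acid (FA), a phenolic acid that acts as an allelochemical. The genes comprised 10 loci, 5 CKX and 5 type-A RR, out of 29689 loci represented on the array. They were found by the Rice Annotation Project locus that opens each probe name, and their gene names come from the study's list of cytokinin genes. Together they had 12 probes, because OsRR1 and OsRR2 had 2 probes each and every other locus had 1. Root RNA of 6-day-old seedlings of cultivar TN-67 exposed to 50 ppm FA was hybridised against root RNA of water-treated seedlings of the same age on 6 two-colour Agilent arrays. The short exposure (3 arrays) held RNA pooled from 1 and 3 h, so a change at either time alone is averaged with the other, and the long exposure (3 arrays) held RNA from 24 h. The FA sample was labelled with Cy5 and the water control with Cy3 on all 6 arrays, so a dye bias cannot be told apart from FA in a ratio within one exposure, whereas a bias equal on all arrays cancels in short minus long.

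Cytokinins are adenine-derived hormones that promote cell division in the shoot, and in roots they restrain elongation and branching. CKX enzymes inactivate them by cleaving off the side chain. The signal passes from histidine kinase receptors through phosphotransfer proteins to type-B RR, which are transcription factors. Type-A RR lack the DNA-binding part, are commonly induced by cytokinin as early response genes, and act back on the pathway as dampers. Many CKX genes are induced by cytokinin as well.

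A locus was tested in a comparison where the processed signal of its brightest probe reached 100 in at least 1 channel of at least 1 array of that comparison. A ratio on at least 2 arrays of each exposure compared was also needed. The mean log2 ratio (FA over control) was tested with limma over all probes. A locus passed at an adjusted p under 0.1 and was called where the mean change was also at least 1 on the log2 scale, which is 2-fold. Ratios moved on much of the array, so counts of members stand beside the share of all tested loci. The 4 root marker loci (Lsi1, Lsi2, RCc3 and NRAMP5) were well above background in both channels of every array. The summed signal of 5 green-shoot loci (3 RbcS, CAB1R and CAB2R) was 173 to 609 in the control and 187 to 584 in the FA channel of the short arrays. On the long arrays it was 82.2 to 224 and 112 to 211, against sums of at least 81114 for the root markers. Of these, CAB1R was above background on the 3 short arrays and on none of the long arrays in either channel. RbcS2 (brightest probe) was above background on 6 arrays in the FA channel and on 2 in the control, RbcS4 on 4 and 1, and RbcS3 and CAB2R on 1 in each channel. The mean log2 ratios of the root markers after short and long exposure were -0.89 and 0.46 for Lsi1, -0.70 and 0.34 for Lsi2, 0.58 and 0.68 for RCc3, and 0.17 and 0.90 for NRAMP5. The part of these marker differences in the results below was not tested, and in root tips, the source of the RNA per the study's methods, a loss of cells of one type and less RNA per cell cannot be told apart.

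After short exposure 6 of the 9 tested member loci passed. OsCKX5, OsCKX2 and OsRR6 were upregulated, against 28.3% of all tested loci, and OsRR2, OsRR3 and OsRR4 were downregulated, against 39.6% of all. OsCKX2 reached the signal minimum only through the FA channel of the short arrays, where it was higher, so its pass does not bear on that share. Of the 8 members well above background in both channels on all 3 short arrays, 5 passed, without OsCKX2. Among all 18749 loci tested under that filter, 5041 passed as higher and 7798 as lower, so this count does not set the members apart. OsCKX5 alone was called, where 9.61% of all tested loci were called in either direction. After long exposure 6 of 8 tested members passed: OsCKX5 was higher (27.4% of all loci), and all 5 type-A RR were lower (30.3% of all). None was called after long exposure (limma), against 2.50% of all loci, since no mean reached 1 on the log2 scale, although 6 had an unadjusted p under 0.05. For short minus long 3 of 9 tested members passed, OsCKX5 and OsRR6 with a higher ratio in the short exposure (19.3% of all loci) and OsRR2 with a lower one (27.5% of all). OsCKX5 and OsRR6 were also called there, against 8.62% of all loci. Short arrays 1 and 2 shared a slide, short array 3 lay on another and the long arrays shared 1 of their own. No slide held both exposures, so a slide effect cannot be told apart from exposure in short minus long. With slide as a random block (fitted correlation -0.0987) these 3 members still passed (limma), but the block cannot remove such an effect.

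**Figure D1:**
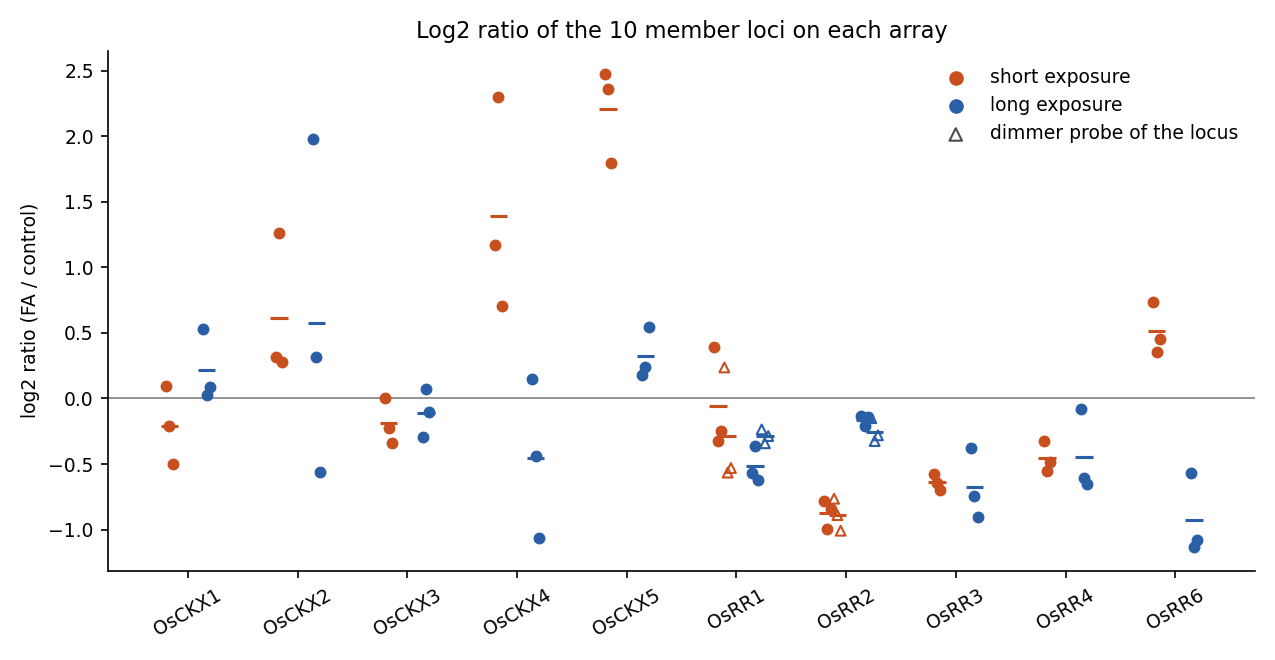
Log2 ratio of FA over control on each of the 3 short (orange) and 3 long (blue) arrays for the 10 loci, with a bar at the mean; filled circles are the brightest probe of a locus and open triangles the dimmer one. OsCKX5 is above 1.7 on every short array and below 0.6 on every long array, and OsRR6 changes sign between the exposures.

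Among the CKX loci, OsCKX5 (Os01g0775400) had the largest response. Its control signal on short arrays 1, 2 and 3 was 92.5, 117 and 142, and its FA signal was 513, 603 and 494, in the arbitrary units of the scanner. On the long arrays the control signal was 196, 196 and 184 and the FA signal 223, 232 and 267. Both channels were well above background on all 6 arrays, and the FA signal exceeded the control signal on each. The log2 ratios were 2.47, 2.36 and 1.80 in the short and 0.18, 0.24 and 0.54 in the long exposure, and the 2 exposures did not overlap. The mean was 2.21 ± 0.36 (SD, n = 3), a 4.63-fold increase, after short exposure (adjusted p = 0.00013, limma, 95% interval 1.87 to 2.56). After long exposure it was 0.32 ± 0.19 (SD, n = 3), or 1.25-fold (adjusted p = 0.026, limma). The difference of 1.89 between the exposures had a 95% interval of 1.44 to 2.34 (adjusted p = 0.00052, limma). Neither the short-exposure call nor this difference was lost under any alternative processing or with any array left out.

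OsCKX2 (Os01g0197700), known in rice as the grain-number locus Gn1a, was dim. Its FA signal was 114, 114 and 111 on the short arrays against 91.2, 47.5 and 92.0 in the control, and the control was above background on 2 of these 3 arrays. The log2 ratios were 0.32, 1.26 and 0.28, with a mean of 0.62 ± 0.56 (SD, n = 3, adjusted p = 0.038, limma). Thus the FA signal was nearly constant, and the spread of the ratio followed the control channel of array 2, the 1 that was not above background. The locus no longer passed without the signal filter (adjusted p = 0.23), by the methods' t-test (adjusted p = 0.26), or with all 6 arrays in one fit (adjusted p = 0.23, and 0.19 with slide as a random block). Without short array 2 the mean was 0.30 (adjusted p = 0.034, limma). On the long arrays no channel exceeded 51.7, the control was above background on 1 of 3, and the ratios of 1.98, 0.31 and -0.56 were not tested.

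OsCKX4 (Os01g0940000), a CKX gene known in rice for its part in crown root formation, was dimmer still and was not tested in any comparison, since no signal exceeded 42.7. Its FA signal was 37.6, 41.0 and 39.0 on the short arrays, all above background, whereas the control signal of 16.7, 8.32 and 23.9 was above background on 1 array only. The ratios were 1.17, 2.30 and 0.71 in the short and 0.15, -0.44 and -1.06 in the long exposure, where the control was above background on 1 array and FA on 2. All short ratios lay above all long ratios.

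OsCKX1 (Os01g0187600) and OsCKX3 (Os10g0483500) were above background on every array and did not pass in any of the 3 comparisons as fitted. The OsCKX1 ratios were 0.09, -0.21 and -0.50 after short and 0.53, 0.03 and 0.09 after long exposure. Its short minus long difference was -0.42, with a 95% interval of -0.87 to 0.02 (adjusted p = 0.12, limma), and the exposures overlapped. That difference passed with slide as a random block (adjusted p = 0.093) and without short array 1 (adjusted p = 0.058). It also passed with the replicate block, with a signal of 100 on every array, and with both channels well above background on every array. OsCKX3 ratios ranged from -0.34 to 0.00 in the short and from -0.30 to 0.07 in the long exposure, and its difference was -0.08 with an interval of -0.39 to 0.23. Over the tested CKX loci the median log2 ratio was 0.21 after short exposure (4 loci, beside -0.09 for all tested loci) and 0.22 after long exposure (3 loci, beside -0.03). The short median depended on the dim OsCKX2: over the 3 loci well above background in both channels on every array it was -0.19. With 1 array left out it was 0.065 (without short array 2) to 0.36 (without short array 3), and the long median was 0.057 without long array 1.

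**Figure D2:**
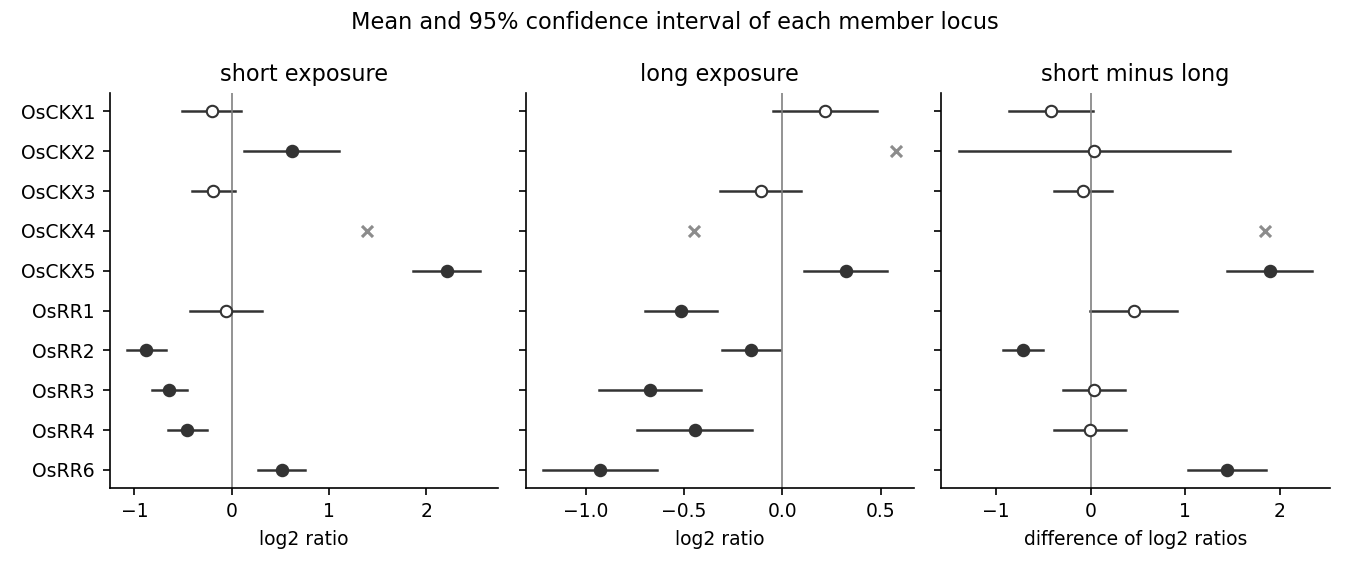
Mean log2 ratio (first 2 panels) and difference of log2 ratios (last panel) of the brightest probe of each locus, with the 95% confidence interval from limma. Filled circles passed the test, open circles did not, and crosses were too dim to be tested; all 5 OsRR loci lie below 0 in the long exposure.

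Of the 5 type-A RR, 3 passed as lower and 1 as higher after short exposure, and 5 passed as lower after long exposure. By the methods' t-test OsRR2 alone of them passed after long exposure. After short exposure 3 were below 0 on all 3 arrays (46.1% of all loci), and after long exposure all 5 were (38.0% of all). Their median log2 ratio was -0.45 after short and -0.52 after long exposure, beside -0.09 and -0.03 for all tested loci. None of these 5 reached a 2-fold mean change against its control over 3 arrays, but without long array 1 the OsRR6 mean after long exposure was -1.11 (adjusted p = 0.00050, limma).

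OsRR2 (Os02g0557800) fell mainly in the short exposure. On the brighter of its 2 probes the control signal was 3351, 3149 and 3592 and the FA signal 1946, 1575 and 1998 on the 3 short arrays. On the long arrays the control signal was 3402, 3291 and 3360 and the FA signal 3094, 2847 and 3047. Thus the long control signals lay within the range of the short ones, while the FA signals did not overlap. The log2 ratios were -0.78, -0.9995 and -0.85 after short exposure, a mean of -0.88 ± 0.11 (SD, n = 3, adjusted p = 0.00046, limma), which is 1.84-fold lower. After long exposure they were -0.14, -0.21 and -0.14, a mean of -0.16 ± 0.04 (SD, n = 3, adjusted p = 0.070, limma). The dimmer probe gave means of -0.89 and -0.25, and passed in both exposures. The difference between the exposures was -0.71 (95% interval -0.93 to -0.50, adjusted p = 0.0012, limma) and -0.64 on the dimmer probe. The long-exposure decrease of the brighter probe no longer passed when any 1 of the 3 arrays was left out (adjusted p 0.13 to 0.24) or when each array was centred on its median (adjusted p = 0.14).

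OsRR6 (Os04g0673300), whose overexpression in rice is known to lower cytokinin sensitivity, changed in opposite directions. The control signal was 439, 573 and 542 on the short arrays and 764.5, 764 and 897 on the long arrays, and the FA signal was 731, 733 and 740.4 against 516, 348 and 425. So both channels separated the exposures, with the control higher on the long and FA higher on the short arrays. Signals of different arrays were not scaled to each other, and the channel levels were not tested. The ratios were 0.74, 0.35 and 0.45 in the short and -0.57, -1.13 and -1.08 in the long exposure. The short mean was 0.51 ± 0.20 (SD, n = 3), or 1.43-fold higher (adjusted p = 0.0060, limma), and the long mean was -0.93 ± 0.31 (SD, n = 3), or 1.90-fold lower (adjusted p = 0.0027, limma). Their difference was 1.44, with a 95% interval of 1.03 to 1.85 (adjusted p = 0.0011, limma). The methods' t-test left both means just outside the threshold (adjusted p = 0.10 and 0.12), whereas the difference passed under every alternative.

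OsRR3 (Os02g0830200) and OsRR4 (Os01g0952500) were lower in both exposures by similar amounts. The OsRR3 ratios were -0.58, -0.64 and -0.70 after short exposure (mean -0.64, adjusted p = 0.0010, limma). After long exposure they were -0.37, -0.74 and -0.90 (mean -0.67, adjusted p = 0.0049, limma), with a wider spread. Its difference between exposures was 0.03, with a 95% interval of -0.30 to 0.36. For OsRR4 the ratios were -0.32, -0.55 and -0.49 in the short exposure (mean -0.45, adjusted p = 0.0050, limma). In the long exposure they were -0.08, -0.60 and -0.65 (mean -0.45, adjusted p = 0.026, limma), so that long array 1 stood nearest to 0. Its difference was -0.0080, with an interval of -0.39 to 0.38. These intervals leave room for a difference of up to about 0.4 either way.

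**Figure D3:**
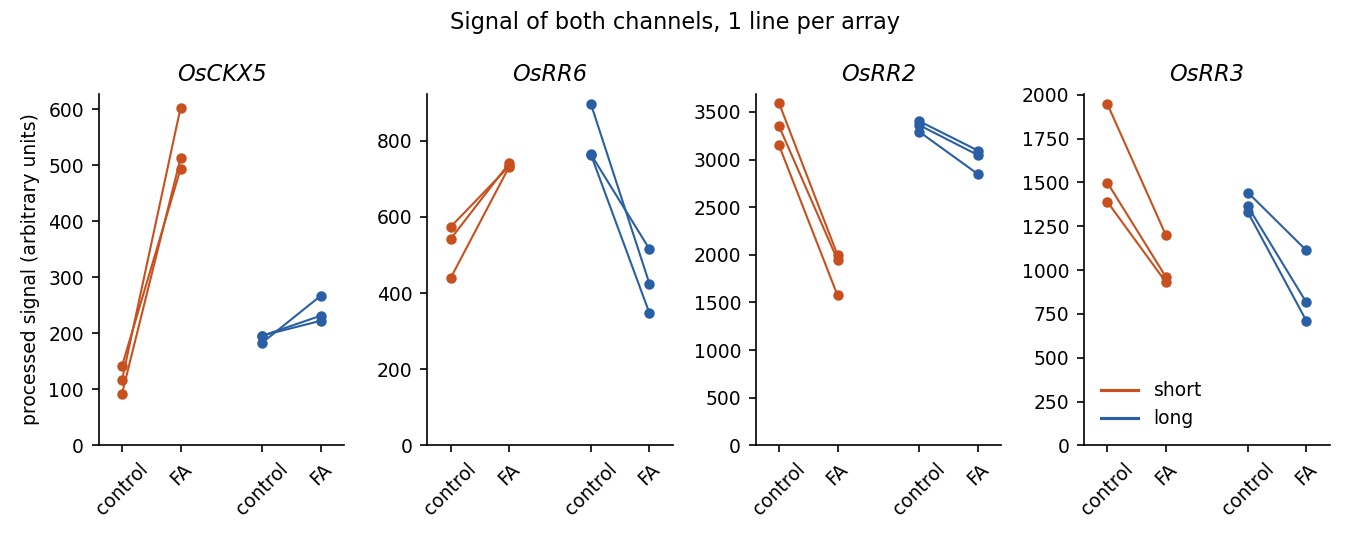
Processed signal (arbitrary units, linear axis from 0) of the control and FA channels for the brightest probes of OsCKX5, OsRR6, OsRR2 and OsRR3, with 1 line per array (orange, 3 short arrays; blue, 3 long arrays). The OsCKX5 lines rise steeply only on the short arrays, the OsRR6 lines rise on the short and fall on the long arrays, and the OsRR2 lines fall more on the short arrays.

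OsRR1 (Os04g0442300) was lower after long exposure, whereas its short arrays disagreed. On the brighter probe the short ratios were 0.39, -0.33 and -0.25, with a mean of -0.060 and a 95% interval of -0.43 to 0.31. On the dimmer probe they were 0.24, -0.57 and -0.53. Thus short array 1 was above 0 and the other two below 0 on both probes. The long ratios were -0.57, -0.36 and -0.62 on the brighter probe, a mean of -0.52 ± 0.14 (SD, n = 3, adjusted p = 0.0037, limma), and the dimmer probe had a mean of -0.29 (adjusted p = 0.012, limma). On the long arrays the dimmer probe reached the signal minimum only through the control channel (up to 111, FA up to 87.7). As that channel was the higher one, the pass of the dimmer probe adds no separate support. The 2 probes disagreed on the difference between exposures, which was 0.45 (95% interval -0.0027 to 0.91, adjusted p = 0.11, limma) on the brighter and 0.0020 (interval -0.49 to 0.50) on the dimmer. On the brighter probe it passed with slide as a random block, with a signal of 100 on every array, and with both channels well above background. Without short array 1, OsRR1 fell by 0.29 on the log2 scale (adjusted p = 0.078, limma) and OsCKX1 and OsCKX3 passed as well, so that all 9 tested members passed. Of all 18349 loci tested without that array, 4561 passed as higher and 6079 as lower.

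The 3 short and 3 long ratios did not overlap for 4 of the 9 members tested for the difference, OsCKX5, OsRR1 (brighter probe), OsRR2 and OsRR6. Among all loci with 6 ratios the share was 52.9%, so the members were not set apart by this count. The log2 ratios of both OsRR6 and OsCKX5 were nonetheless larger in the short exposure by more than the 2-fold limit.

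Of the other cytokinin genes on the study's list, 32 of 45 loci had a probe, and 21 could be tested in the short and 20 in the long exposure. In the short exposure 10 passed as higher (28.3% of all loci) and 7 as lower (39.6% of all), and in the long exposure 3 as higher (27.4% of all) and 7 as lower (30.3% of all). Synthesis genes held the largest increase. OsIPT3, an isopentenyltransferase that catalyses the first step of cytokinin synthesis, had ratios of 1.13, 1.23 and 1.05 in the short (mean 1.13, adjusted p = 0.00016, limma) and -0.47, -0.42 and -0.25 in the long exposure (mean -0.38, adjusted p = 0.0077, limma). Its sign thus turned between the exposures as that of OsRR6 did, with a difference of 1.52 (adjusted p = 9.4e-05, limma). OsIPT4, another isopentenyltransferase, differed the other way, by -1.04 (adjusted p = 0.00058, limma). However, OsIPT4 reached the signal minimum only on long array 3 (control 102, FA 116), and no short signal exceeded 78.7. It thus entered the test of the difference only through the exposure where its ratio was higher, and its pass has to be read with that limit. It was too dim to be tested in the short exposure, where its ratios were -0.99, -0.74 and -0.94.

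Further CKX loci with a testable signal were OsCKX11 and Os01g0197600, which the list also gives as a CKX. Os01g0197600, described here after its values were seen, had means of 0.43 in the short and -0.50 in the long exposure (adjusted p = 0.039 and 0.050, limma). Without short array 2 the short mean was 0.23 (adjusted p = 0.0997, limma), and without long array 3 the long mean was -0.24 and did not pass (adjusted p = 0.10, limma). OsCKX11 rose in both exposures, with means of 0.41 and 0.70 (adjusted p = 0.0071 and 0.0016, limma). Among the receptors OsHK4 fell most, with means of -0.76 and -0.38 (adjusted p = 0.00051 and 0.0070, limma). Of the phosphotransfer genes OsHP4 fell by 0.44 in the short exposure (adjusted p = 0.015, limma) on its brightest probe. The only other OsHP4 probe tested there had a mean of 0.032 (adjusted p = 0.73, limma), and the remaining OsHP4 probes were too dim to be tested. Of the 7 type-B RR, 5 were tested in the short exposure, where 2 rose and 2 fell, beside 28.3% and 39.6% of all loci. The largest change was that of OsRR17, with means of -0.87 and -0.68 (adjusted p = 0.00036 and 0.0014, limma).

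Outside the 5 type-A RR above, 3 further RR of the list were tested. In the short exposure 1 passed as higher (28.3% of all loci) and 2 as lower (39.6% of all). The higher one was OsRR13, also named here after its values were seen, with a mean of 0.41 (adjusted p = 0.015, limma). Its long mean was 0.044 and did not pass. OsRR10, a rice type-A RR, had ratios of -0.14, -0.42 and -0.89 in the short exposure (mean -0.48, adjusted p = 0.030, limma). In the long exposure its ratios were -0.72, -1.40 and -1.39 (mean -1.17, adjusted p = 0.0024, limma), and by its brightest probe it was called. OsRR9, named here after its values were seen, had means of -0.38 and -0.78 (adjusted p = 0.027 and 0.0060, limma) on its brighter probe. Without short array 3 its short mean was -0.28 and did not pass (adjusted p = 0.11, limma). The dimmer OsRR9 probe had means of -0.35 and -1.07 (adjusted p = 0.035 and 0.0016, limma), which is past the 2-fold limit after long exposure. OsRR9 and OsRR10 are a closely similar duplicated pair, so their probes may bind both transcripts.

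**Figure D4:**
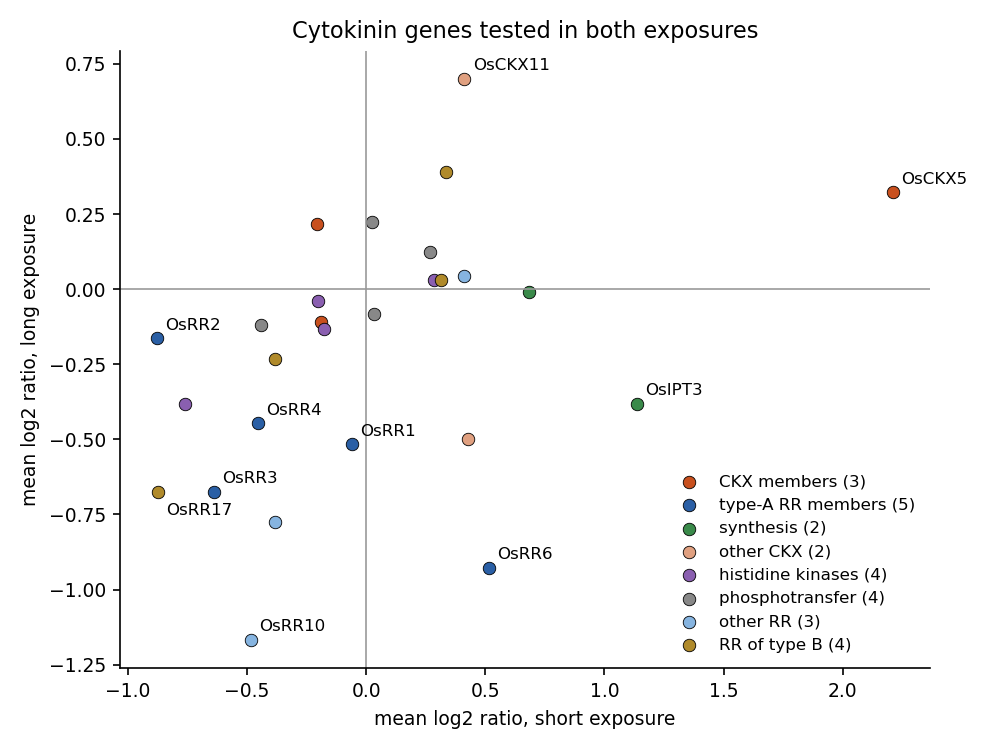
Mean log2 ratio after short (horizontal axis) and long exposure (vertical axis) for the 27 cytokinin loci tested in both, coloured by their role, with the number of loci in the legend. OsCKX5 lies far to the right, OsIPT3 and OsRR6 lie to the right and below 0, and the other 4 type-A RR members lie to the left and below 0.

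The loci whose 6 log2 ratios lay nearest to those of OsCKX5, by root mean square difference among 17033 loci tested in both exposures with a ratio on every array, were Os01g0948600, Os06g0651000 and Os02g0797100. Their differences were 0.21, 0.24 and 0.24. The study's tables describe Os01g0948600 as EL2 protein and Os02g0797100 as a cellulase. For OsRR6 they were Os05g0252100, Os07g0126800 and Os03g0743500, with differences of 0.16, 0.19 and 0.19.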

How the data were processed

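The authors extracted the arrays with Feature Extraction (version 10.7.1.1 per the file headers). The deposited log10 ratio (red over green) and processed intensity are background corrected and dye normalized, and raw median intensity is given too. A deposited value table holds the authors' log2 ratios. Here log10 ratios were converted to log2, 2007 control spots and flagged spots were left out, and spots of a probe were averaged (42418 probes). The mean ratio and short minus long were tested with limma 3.58.1 in R 4.3.3, with Benjamini-Hochberg adjustment over 27773 (short), 27068 (long) and 28357 (difference) probes that had a ratio on at least 2 arrays per exposure. A locus took its probe of highest mean signal. The procedure was tested on simulated data. Arrays give no counting depth, and 3 arrays per exposure limit the precision. The labels number them as replicates, and the study's methods call them biological replicates. Members and gene lists were chosen with earlier results of these data known. Named beyond the members were every other listed cytokinin locus that was called, the locus of each group with the largest change past the test, and the 3 nearest loci for OsCKX5 and OsRR6. Alternatives were normexp (offset 50) with loess, median centring, the value table, other signal filters, the methods' t-test, the median of a locus's probes, one fit of 6 arrays, slide as a random block, a replicate block and each array left out. Sequences were not analysed here.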

Additional observations from a re-analysis of the deposited data

Results flagged for a closer look

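The log2 ratio of 3 members differed between the exposures by the test of the difference itself (limma, short minus long, all 6 arrays). The difference was 1.89 for OsCKX5, 1.44 for OsRR6 and -0.71 for OsRR2. Short arrays 1 and 2 shared a slide, short array 3 lay on another, and the 3 long arrays shared the third. No slide held both exposures, so a slide effect cannot be told apart from exposure in these differences. With slide as a random block all 3 differences passed, but the block cannot remove an effect of slides that each hold 1 exposure. The fitted slide correlation was -0.0987, and probes past the test for the difference rose from 13239 to 14755 with the block.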

How the results depend on the processing

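The counts of members past the test changed by more than 1.5 times under few alternatives. For long exposure the methods' t-test left 1 locus (OsRR2) instead of 6. Among all 18666 loci tested it left 2037 higher and 2010 lower, instead of 5112 and 5665. For short minus long, a signal of 100 on every array, both channels well above background on every array, and slide as a random block each gave 5 loci instead of 3, with OsCKX1 and OsRR1 added. With each array left out in turn, the count ranged from 6 to 9 for short exposure, from 4 to 5 for long exposure and from 3 to 4 for the difference. Same-numbered short and long arrays did not deviate from their group means together (r = -0.08, -0.01 and 0.14 over probes), so the numbers were not taken as pairs. With the replicate block 4 members passed for the difference, OsCKX1 in addition to the 3. With all 6 arrays in one fit 5 members passed after short exposure, without OsCKX2, and the same 6 after long exposure. The slide block could not be estimated within 1 exposure. In one fit of all 6 arrays, added after seeing the data, it gave 6 after short exposure, with OsCKX3 gained and OsCKX2 lost, and the same 6 after long exposure.

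Reversed signs concerned values that did not pass before any alternative was applied. OsRR1 after short exposure was 0.12 with normexp and loess and 0.022 with centred arrays, and -0.29 to 0.072 with arrays left out. The value of -0.29, without short array 1, did pass. For the difference OsRR4 was 0.076 with normexp and loess, 0.039 with centred arrays and -0.11 to 0.17 with arrays left out. Leaving out arrays gave -0.53 to 0.74 for OsCKX2, -0.081 to 0.18 for OsRR3 and -0.17 to 0.012 for OsCKX3. Across all loci, normexp with loess turned the split after short exposure from 5406 higher and 7574 lower to 6673 and 6015. Among loci called in the short exposure it went from 1346 and 490 to 1109 and 125, and for the difference from 1124 and 567 to 884 and 237. The cause was not tested.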
